A study of Mus musculus with 155 samples.

Results

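The 6 genes Trf, Ptgds, Apod, Cryab, Gsn and Gjc3 encode secreted and supporting proteins of oligodendrocytes, and they were described here in single sorted cells of the mouse brain before and after demyelination. They were picked by name as the iron carrier, prostaglandin synthase, lipocalin, small chaperone, gelsolin and connexin of oligodendroglia. All 6 were found among the 3422 genes of the deposited table. The study sorted 155 live cells from the subventricular zone and corpus callosum of mice aged 8 to 10 weeks and measured their polyadenylated RNA by SMART-Seq2, a plate method that reads whole transcripts of 1 cell per well.

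Populations were defined by fluorescent reporters. NB (37 cells) came from healthy, non-injected mice of strain CB6-Tg(Gad1-EGFP)G42Zjh/J and NBL (27 cells) from demyelinated mice of the same strain. In both, GFP under Gad1 control marks the neuroblast gate. O (29 cells) came from healthy and OL (22 cells) from demyelinated mice of strain Olig2-tdTomato TH39Gsat/Mmcd, whose Tomato under Olig2 control marks cells of the oligodendrocyte lineage. OligNBL (40 cells) were positive for both reporters and came from crosses of the strains, so strain changes together with the gate in every comparison that involves them. Demyelination was induced with LPC (lysolecithin, a lipid that strips myelin), and NBL, OligNBL and OL were collected 6 days later. The labels give 5 mice for the demyelinated and 5 for the healthy condition but tie no cell to a mouse, so each population counted as 1 sample and no p-value could be computed. Titles of the OligNBL cells carry the abbreviation of a control whereas their lesion label reads lesion. The lesion label was used.

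As background, myelinating oligodendrocytes are a main source of transferrin in the brain, and iron is a cofactor of the enzymes that make cholesterol and lipids for the sheath. Mature cells also secrete prostaglandin D2 synthase and apolipoprotein D, which bind small lipophilic molecules in the extracellular space. Alpha-B crystallin keeps partly unfolded proteins from aggregating, gelsolin cuts and caps actin filaments, and connexin 29 is a membrane protein of the inner myelin layers.

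Values are the deposited signal, which behaves as normalized across cells. A gene's level in a population is the mean over its cells of log2(signal + 1), given with the SD between cells, and a difference of at least 1 between levels is the size that was counted. Column totals ran from 5155899 to 5161091, the 8 highest values were equal in every cell and 65.6% of all values were at their column's lowest value, so the depth of a cell is unknown. Below the 8 highest, the same rank often carried the same value in different cells: rank 110 was 1024.5 in OL cell CRBT172 and O cell CRBT199. A level thus mostly reflects a gene's rank within cells, under a shared highest value of 1192295. Median genes detected, meaning above the column's lowest value, ranged from 950.5 in OL to 1397 in OligNBL. A gene listed at 0 may be a missed transcript, since Gapdh was at 0 in 65 cells and Eef1a1 in 70. Of 20 mature oligodendrocyte markers 13 were measured, and their summed level per cell was 62.4 to 105.2 in O and 27.2 to 132.9 in OL, against at most 24.8 in NB, 13.3 in NBL and 16.96 in OligNBL. The 17 measured neuroblast markers had median summed levels of 43.04 in NB, 45.2 in NBL, 54.2 in OligNBL, 16.5 in OL and 13.2 in O. Markers of microglia, choroid plexus and ependyma were not analysed here, and astrocyte, endothelial, mural, meningeal and mature neuron lists had 1 measured gene each, too few to check those cells. Snap25, the measured neuronal gene, was at 6.20 ± 5.22 in O, 2.02 ± 3.26 in OL and 0.23 ± 0.71 in NB, and Pecam1, the endothelial one, at 10.53 ± 1.83, 8.49 ± 2.87 and 6.54 ± 3.97. Both were higher in O than in NB and in OL, as Gsn was, and their part in the members' differences was not tested. Pecam1 was also at 8.59 ± 1.79 in NBL and 8.11 ± 3.40 in OligNBL, near its level in OL. S100b, the measured astrocyte gene, was at 1.93 ± 1.55 in O, 2.30 ± 1.56 in OL and 1.42 ± 1.91 in NB.

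Apod, Gsn and Ptgds were each higher by at least 1 in O than in NB and in OL than in NBL. Gjc3 was not. The upstream bases of these 4 of the 6 genes, taken from RefSeq (GRCm38.p6), are shown so that they can be set side by side. All are written 5′ to 3′ on the gene's strand and end just before the start site, except that of Ptgds, which was cut short so as to hold no annotated exon. Capitals mark exact matches, on either strand, to ACAAAG or ACAATG, the core letters bound by SOX factors such as SOX10, and to CAGCTG, a letter pattern bound by basic helix-loop-helix factors.
Apod, chr16:31314809-31315058, minus strand: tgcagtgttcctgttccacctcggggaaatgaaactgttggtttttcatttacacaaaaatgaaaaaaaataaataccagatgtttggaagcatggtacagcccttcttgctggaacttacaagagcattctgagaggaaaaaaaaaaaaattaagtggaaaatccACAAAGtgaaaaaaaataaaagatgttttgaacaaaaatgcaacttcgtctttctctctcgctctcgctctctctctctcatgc
Gsn, chr2:35256109-35256358, plus strand: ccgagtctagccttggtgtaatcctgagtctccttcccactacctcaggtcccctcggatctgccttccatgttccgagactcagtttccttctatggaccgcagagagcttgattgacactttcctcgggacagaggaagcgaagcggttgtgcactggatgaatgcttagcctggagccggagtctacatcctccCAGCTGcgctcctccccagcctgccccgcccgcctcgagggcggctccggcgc
Ptgds, chr2:25469843-25469999, minus strand: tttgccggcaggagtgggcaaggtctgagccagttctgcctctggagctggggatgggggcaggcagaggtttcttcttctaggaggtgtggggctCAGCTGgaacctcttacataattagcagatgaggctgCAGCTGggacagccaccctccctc
Gjc3, chr5:137963099-137963348, minus strand: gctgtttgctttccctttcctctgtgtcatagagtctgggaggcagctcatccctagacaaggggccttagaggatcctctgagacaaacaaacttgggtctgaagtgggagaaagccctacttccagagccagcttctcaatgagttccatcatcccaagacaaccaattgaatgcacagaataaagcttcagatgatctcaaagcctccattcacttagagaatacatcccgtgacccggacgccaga
Apod held 1 ACAAAG, 84 bases before its start, a word present in 16.5% of 32536 mouse promoter windows of 250 bases. The window of the first Gsn start held 1 CAGCTG at 53 bases before the start, and the shorter Ptgds window held 2, at 154 and 117 bases. CAGCTG was present in 13.1% of all windows. None of these words was found in the Gjc3 window, and ACAATG, found in 10.5% of windows, was in none of those shown. Of the other Gsn starts, the window at chr2:35266494-35266743 held 1 CAGCTG and the one at chr2:35282130-35282379 held none. These matches describe letters only.

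Trf encodes transferrin, the iron carrier, and lies on chromosome 9 (103204001 to 103230444, minus strand, GRCm38; ENSMUSG00000032554.15). Its signal ran from 38.9 through a median of 17517 to 1192295 in OL, and from 57.2 through 25059 to 1192295 in O. In NB the lowest and median signals were 0 and the highest 28.1, in NBL 0, 0 and 10.2, and in OligNBL 0, 0 and 14.1. Every O and OL cell was therefore above every NB, NBL and OligNBL cell. The levels were 15.19 ± 2.92 in O and 14.72 ± 4.58 in OL, followed by 0.40 ± 1.20 in NB, 0.39 ± 0.96 in OligNBL and 0.16 ± 0.68 in NBL. O and OL differed by less than the SD between cells, as did NB, OligNBL and NBL among themselves. Trf was the highest gene of the cell in 6 OL and 3 O cells, and its median rank within a cell was 31 in OL and 25 in O. It ranked among a cell's 500 highest genes in each of the 22 OL and 29 O cells, for which the exact Clopper-Pearson 95% intervals begin at 84.6% and 88.1%. The same was true of 3 of 35 NB cells (8.57%, interval 1.80% to 23.1%), 1 of 40 OligNBL cells (2.5%, 0.0633% to 13.2%) and 0 of 27 NBL cells (up to 12.8%). Intervals here take each cell as an independent draw, cover counting error only and say nothing of mice, and 2 NB cells with at most 500 detected genes were left out of them.

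Part of Trf cannot be separated from an annotated gene that overlaps it. Gm20425 (chromosome 9, 103190208 to 103230307, minus strand) shares 2108 of Trf's 3320 exon bases, or 63.5%, and shares 888 exon bases with Srprb, the gene next to Trf that encodes a subunit of the signal recognition particle receptor. Both neighbours were chosen after their values were seen. Gm20425 was at 7.12 ± 4.87 in OL and 6.97 ± 5.02 in O, and its correlation with Trf across cells was 0.81 in each (22 and 29 cells, with reads that can be assigned to either gene). In OligNBL it was at 1.53 ± 2.68 and was detected in 16 of 40 cells, 13 of them with no Trf value. All 16 of those cells had a Srprb value, whereas 5 of 26 O cells and 5 of 20 OL cells with Gm20425 did. Srprb itself was at 4.12 ± 4.25 in OligNBL, against 1.19 ± 1.67 in NBL and 0.29 in O. Adding Gm20425 to Trf put OligNBL at 1.79 ± 2.68 and NBL at 0.17 ± 0.68, a difference of 1.62 where Trf alone gave 0.24. How the signal of the shared exons was divided between these genes was not tested.

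Ptgds encodes the lipocalin-type synthase of prostaglandin D2 (chromosome 2, 25466709 to 25470046, minus strand; ENSMUSG00000015090.13). Lowest, median and highest signals were 0, 1900 and 289151 in O and 0, 775 and 146185 in OL. NBL had no cell above 0, OligNBL had 1 cell, at 1.97, and the highest NB cell was at 18.7. All but 1 O cell and 3 OL cells were above every cell of the other populations. The level was 10.52 ± 2.99 in O and 9.16 ± 4.87 in OL, and 0.15 ± 0.72, 0 and 0.04 ± 0.25 in NB, NBL and OligNBL. Ptgds was among the 500 highest genes in 28 of 29 O cells (96.6%, interval 82.2% to 99.9%) and 19 of 22 OL cells (86.4%, 65.1% to 97.1%). The 3 OL cells without a Ptgds signal were named CRBT180 to CRBT182 and formed a set of their own, described further on.

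Apod encodes apolipoprotein D, a secreted lipocalin (chromosome 16, 31296192 to 31314808, minus strand; ENSMUSG00000022548.14). Its signal was 0, 20.6 and 25059 at the lowest, median and highest O cell and 0, 27.4 and 29968 in OL. The highest cells elsewhere were at 52.6 in NB, 33.5 in OligNBL and 1.05 in NBL, so many O and OL cells lay inside the neuroblast range. The level was 6.14 ± 3.95 in OL and 4.29 ± 3.98 in O, which overlapped, and 0.23 ± 0.85 in OligNBL, 0.16 ± 0.94 in NB and 0.04 ± 0.20 in NBL. Apod was among the 500 highest genes of 15 among 22 OL cells (68.2%, 45.1% to 86.1%) and 16 of 29 O cells (55.2%, 35.7% to 73.6%).

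Cryab encodes alpha-B crystallin, a small heat shock chaperone (chromosome 9, 50751325 to 50756636, plus strand; ENSMUSG00000032060.10). Its signal was 0, 320 and 100501 at the lowest, median and highest OL cell and 0, 317 and 53599.5 in O. Outside these populations 1 cell each of NB, NBL and OligNBL had a value, at 0.325, 3.13 and 0.193. The level was 8.65 ± 4.55 in OL and 7.75 ± 4.89 in O, with 18 of 22 and 22 of 29 cells holding it among their 500 highest genes. In these populations cells at 0 occurred side by side with cells at these highest values. The gene overlaps Hspb2 on the opposite strand, and the strand setting of the deposited quantification is not stated in the labels.

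Gsn encodes gelsolin, the actin-severing protein (chromosome 2, 35256380 to 35307892, plus strand; ENSMUSG00000026879.14). In O its signal was 38.1 at the lowest cell, 2132 at the median and 1192295 at the highest. In OL the same 3 values were 0, 62.9 and 100501. The highest cell was at 1.48 in NB, 10.1 in OligNBL and 543 in NBL, where a single cell, CRBT67, reached that value and the next was at 25.2. Hence every O cell was above every NB and OligNBL cell, while OL overlapped all of them. The level was 11.04 ± 3.67 in O and 6.72 ± 4.95 in OL, and 0.60 ± 1.94, 0.24 ± 0.73 and 0.06 ± 0.27 in NBL, OligNBL and NB. Gsn was among the 500 highest genes in 29 of 29 O cells but in 13 of 22 OL cells (59.1%, 36.4% to 79.3%).

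Gjc3 encodes connexin 29 (chromosome 5, 137953461 to 137963098, minus strand; ENSMUSG00000056966.7), and its values did not follow the other members. Lowest and median signals were 0 in every population, and the highest cells were at 69.3 in OligNBL, 53.4 in NB, 51.3 in NBL and 21.9 in O. In OL 1 cell, CRBT179, reached 10127 and the other 21 stayed at or below 9.62. Levels were 1.27 ± 2.97 in OL, 0.73 ± 1.66 in NBL, 0.65 ± 1.51 in NB, 0.50 ± 1.24 in OligNBL and 0.50 ± 1.11 in O, and no neighbours in this order differed beyond their SD. The share of cells with Gjc3 among the 500 highest genes was 11.4% in NB, 11.1% in NBL, 5% in OligNBL, 4.55% in OL and 3.45% in O. The other connexins and pannexins of the fixed list were not analysed here.

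**Figure D1:**
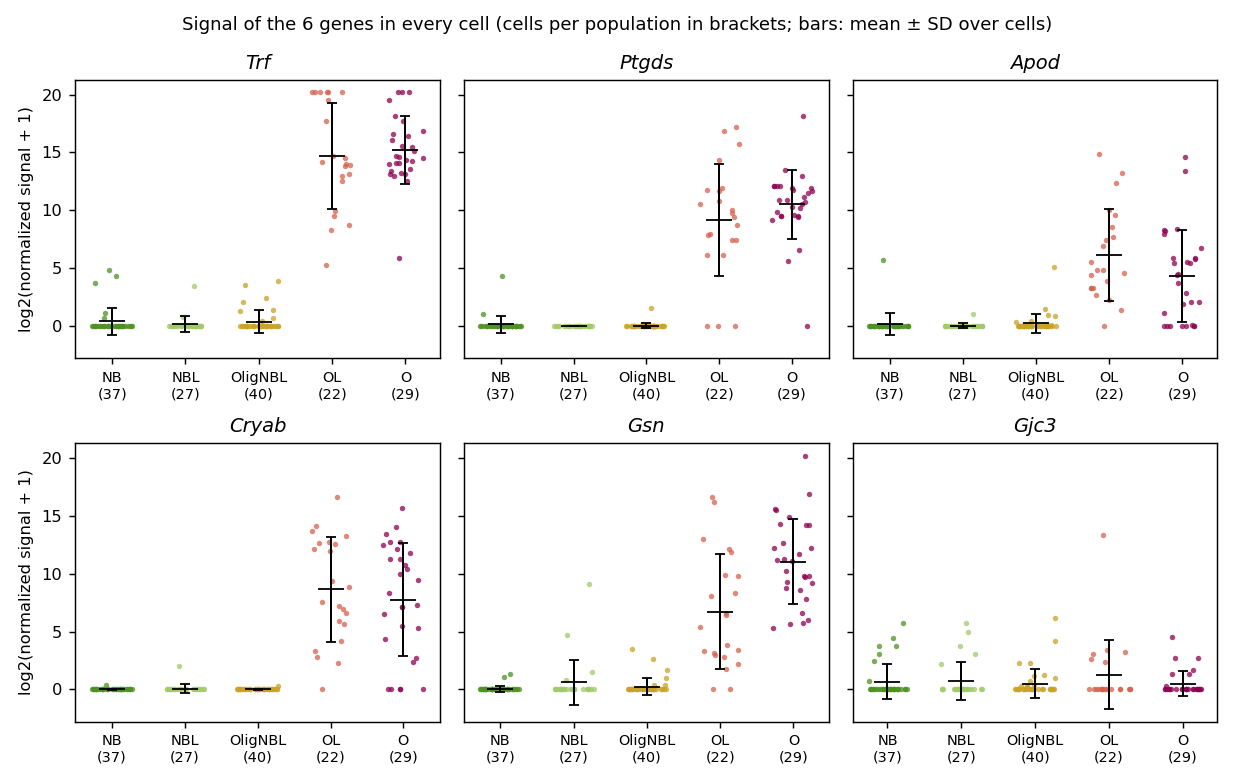
Signal of each gene in every cell, as log2(normalized signal + 1) on the vertical axis, by population on the horizontal axis; points are cells and bars the mean ± SD. Trf separates all OL and O cells from the rest, Ptgds, Apod, Cryab and Gsn span from 0 to their highest values within OL, and Gjc3 is at 0 in most cells of every population, with single cells above it in each.

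Set against all genes, 5 of the 6 genes were higher by at least 1 in O than in NB, where 19.4% of all genes were. The differences were 14.79 for Trf, 10.98 for Gsn, 10.37 for Ptgds, 7.73 for Cryab and 4.14 for Apod, and all 5 exceeded the larger of the 2 SDs. No other gene of the table had a larger difference than Trf, 3 had a larger one than Gsn and 5 than Ptgds. Gjc3 was at -0.14. Values of single cells did not overlap for Trf and Gsn, which is the case for 0.117% of all genes. Cells within a population fell into sets of alike cells, 20 in all, and the means of these sets did not overlap for Trf, Ptgds and Gsn, against 6.17% of all genes. The median difference over all genes was 0.09 and over the 6 members 9.05. Differences against populations near 0 depend on the added 1: with 100 in its place, that of Trf was 8.58 and that of Apod 0.96.

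The same 5 genes separated OL from NBL after demyelination. OL exceeded NBL by 14.56 for Trf, 9.16 for Ptgds, 8.57 for Cryab, 6.12 for Gsn and 6.10 for Apod, a count of 5 of 6 where 23% of all genes were higher by at least 1. Gjc3 differed by 0.54. Set means were apart for Trf, Apod, Cryab and Gsn (9.32% of all genes) but not for Ptgds, because of the OL set listed at 0. Single cells were apart for Trf alone among the members (0.205% of all genes). This comparison shares no cells with that of O and NB, but strain differs with the gate in both.

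Double-positive OligNBL cells had values in the range of the neuroblasts. Against OL they were lower by at least 1 for 5 of 6 genes, where 21.1% of all genes were lower: the differences were -14.33 for Trf, -9.13 for Ptgds, -8.64 for Cryab, -6.48 for Gsn, -5.90 for Apod and -0.77 for Gjc3. Set means were apart for Trf, Apod, Cryab and Gsn (9.73% of all genes), and single cells for Trf (0.146% of all genes). Against NBL none of the 6 reached a difference of 1 in either direction, where 46% of all genes did. The largest were -0.36 for Gsn and 0.24 for Trf, each smaller than the SD between cells. All 13 measured mature oligodendrocyte markers behaved alike, with 13 lower than in OL and none differing from NBL by 1. OligNBL was higher than NBL by at least 1 in 4 of the 7 measured progenitor markers, where 25.7% of all genes were. Olig1 (-0.62), Cspg5 (-0.39) and Sox10 (0.06) differed by less than 1. Of the 17 measured neuroblast markers 6 were higher and 5 lower in OligNBL by at least 1, where 20.3% of all genes were lower. The comparisons with OL and with NBL share the OligNBL cells.

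Within the GFP gate, NBL and NB differed by less than 1 for all 6 genes, where 34.7% of all genes differed by at least 1. The largest value was 0.53, for Gsn, and it was 0.24 without the highest cell of each population, which in NBL is CRBT67. Of the 5 NB cells with a Trf signal, those named CRBT1, CRBT4 and CRBT6 were at 12.2, 18.7 and 28.1, and the other 2 were at most at 1.18.

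**Figure D2:**
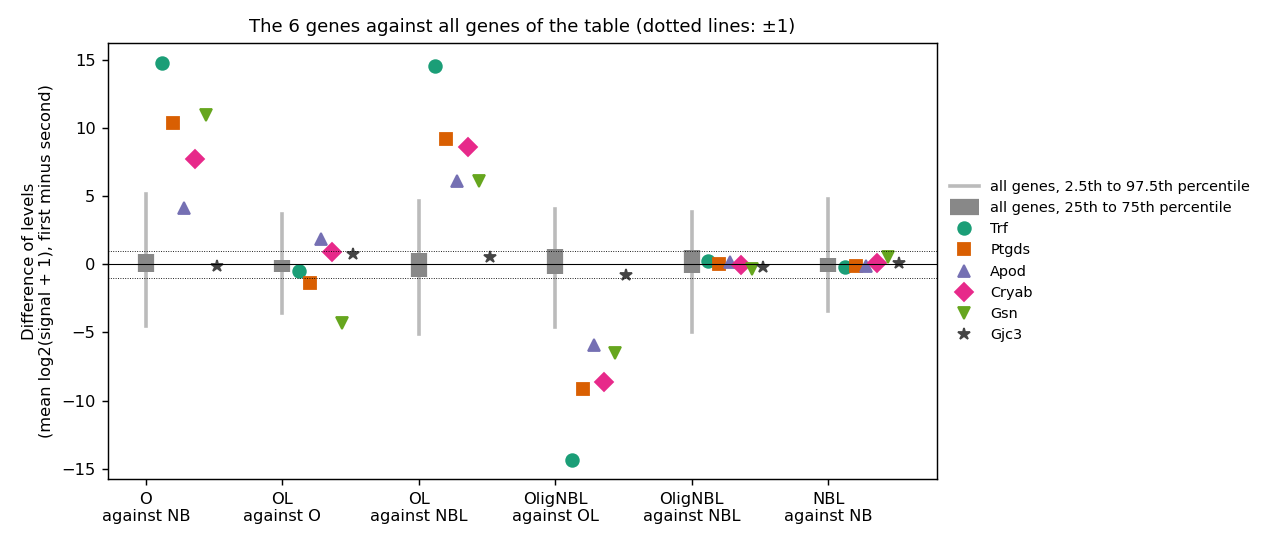
Difference between the levels of 2 populations (vertical axis, log2 units, first minus second) for the 6 genes (symbols) in 6 comparisons (horizontal axis), with grey bars for the middle parts of all 3422 genes. In OL against NBL and OligNBL against OL, 5 symbols lie outside the bars and Gjc3 lies inside, in O against NB Apod (4.14) lies inside too, and in NBL against NB and OligNBL against NBL all 6 lie between -1 and 1.

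Demyelination within the Tomato gate was addressed by OL against O. Gsn was lower in OL by 4.32 on the log2 scale and Ptgds by 1.35, Apod was higher by 1.84, and Cryab (0.90), Gjc3 (0.77) and Trf (-0.47) differed by less than 1. Of all genes 15.9% were higher and 15.7% lower by at least 1, against 1 higher and 2 lower among the 6 members. The share in either direction was 31.6%, and 63.2% when genes with a scaled mean under 5 in both populations were left out, so the members' 3 of 6 lies above one share and below the other. None of the differences exceeded the larger SD between cells, and set means were apart for none of the 6 genes, against 4.44% of all. For Gsn 42 genes of the table had a larger difference in the same direction, and its difference stayed between -5.79 and -2.45 over 15 other settings, 1 of which alters Trf alone. The sign for Ptgds turned to 0.31 among cells with at least 1000 detected genes (9 OL and 21 O cells) and to 0.98 when only the later-numbered cells of each population were used. That for Apod turned to -0.28 in those later-numbered cells. Trf was higher in OL by 1.04 in the earlier-numbered cells and lower in the later-numbered ones, at -1.98. Cryab ran from -0.58 to 2.20 and Gjc3 from -0.30 to 7.64 over the same settings, so no direction is given for these 3 genes. OL cells had fewer genes detected than O cells, with medians of 950.5 and 1187, and the part of this in the differences was not tested. Of the 13 mature markers 7 were higher and 4 lower in OL.

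Individual oligodendroglial cells held several of the genes together. The number among a cell's 500 highest genes had a median of 4 in both OL (2 to 6) and O (3 to 6), and 0 in NB (0 to 3), NBL (0 to 2) and OligNBL (0 to 1). As background, the 500 highest of a cell are drawn from 3422 genes, and 500 of 3422 is the share over all genes. At least 4 were held by 25 of 29 O and 14 of 22 OL cells. No member was held by 29 of 35 NB, 23 of 27 NBL and 36 of 40 OligNBL cells. Outside O and OL only 3 cells held more than 1. NB cell CRBT1 had Trf at 12.2, Apod at 52.6 and Gjc3 at 53.4. NB cell CRBT4 had Trf and Ptgds both at 18.7, and NBL cell CRBT67 had Gsn at 543 and Gjc3 at 30.7. These cells had 920, 574 and 1027 detected genes, and in each the signals were below the O medians of Trf, Ptgds and Gsn, while that of Apod was above its O median.

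**Figure D3:**
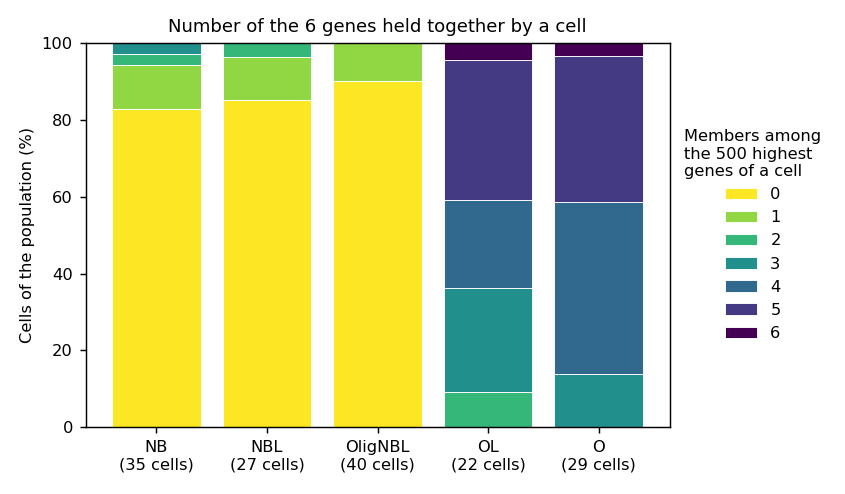
Share of cells (vertical axis, percent) that held 0 to 6 of the genes among their 500 highest, by population (horizontal axis). Most NB, NBL and OligNBL cells held 0, while all OL cells held 2 or more and all O cells 3 or more.

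The spread within OL and O followed sets of cells with alike whole profiles and nearby cell numbers. What the numbers stand for, such as plate position or mouse, no source used here states, so cell state and handling cannot be told apart. Sets were built from all genes, members included, so their values are a description. In OL, the 8 cells named CRBT172 to CRBT179 had Trf at 18.53, Apod at 10.40, Gsn at 9.72, Cryab at 9.66 and Ptgds at 9.26, and all 5 genes were among the 500 highest in each cell. The 8 cells named CRBT183 to CRBT190 had Cryab at 11.60 and Ptgds at 11.40 but Apod at 2.71 and Gsn at 2.17, with no cell above 3.84 for Gsn. Cryab was among the 500 highest genes in all 8 of them and Gsn in 1. The 3 cells named CRBT192 to CRBT194 were the other way round, with Gsn at 13.66 and Cryab at 3.46. The 3 cells named CRBT180 to CRBT182 had Trf at 10.46, no Ptgds, and Apod, Cryab and Gsn between 3.27 and 4.44.

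Healthy O cells divided along the same genes. In the 10 cells named CRBT203 to CRBT215, Trf was at 15.81, Gsn at 14.72, Ptgds at 11.46, Cryab at 8.11 and Apod at 7.42, and each cell held all 5. The 9 cells named CRBT21, CRBT207 and CRBT216 to CRBT222 had Cryab at 12.20, Gsn at 7.72 and Apod at 1.06, with Apod among the 500 highest genes of 1 cell. The 9 cells named CRBT195 to CRBT202 and CRBT208 had Gsn at 9.85 but Cryab at 3.75 and Apod at 3.88. Cell CRBT19, alone in its set, had Gsn at 14.87 and no Cryab. The set of O cells CRBT195 to CRBT208 also took in OL cells CRBT192 to CRBT194. Between the 3 OL and 9 O cells of that mixed set Gsn was higher in OL by 3.82, opposite to the whole populations, and Trf was lower by 2.01 on the log2 scale.

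**Figure D4:**
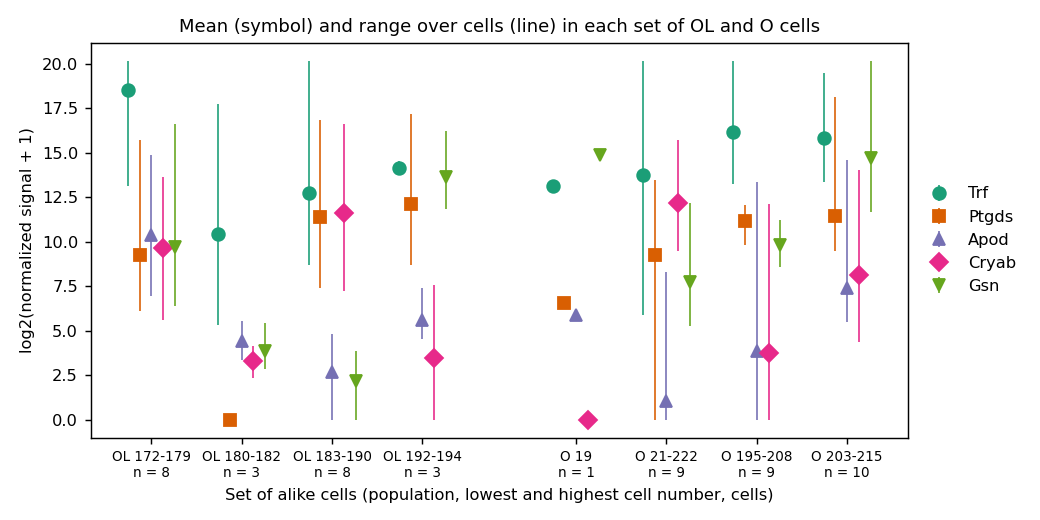
Mean (symbol) and range over cells (line) of log2(normalized signal + 1) for Trf, Ptgds, Apod, Cryab and Gsn in each set of alike OL and O cells on the horizontal axis. Trf means stay above 10 in every set, whereas Gsn and Apod are low and Cryab high in OL CRBT183 to CRBT190, and Gsn is high and Cryab low in OL CRBT192 to CRBT194.

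Apod rose with Gsn over the cells of O and of OL, mainly between sets, and Cryab did not. Across the 29 O cells Pearson's r of Apod and Gsn was 0.64 (Spearman's rho 0.72), and across the 22 OL cells 0.49 (rho 0.64). After subtracting each set's mean it was 0.23 in O, weaker but still positive, and -0.31 in OL. The sets were built from all genes, Apod and Gsn included, so these values are a description only. Cryab and Gsn had r of -0.28 in O and -0.33 in OL. The median r of the 15 gene pairs was 0.004 in O and 0.25 in OL. In OL the highest r was that of Trf and Apod, at 0.58 (0.37 in O). After subtracting set means, Ptgds and Gsn were highest in OL, at 0.77 (-0.32 in O). Apod and Cryab followed, at 0.71 (0.19 in O). All 16 O cells with Apod among their 500 highest genes held Gsn as well, which all O cells did. In OL 11 cells held Apod and Gsn, 4 Apod only and 2 Gsn only, while 7 held Cryab without Gsn. The cells of a population share strain, sort and normalization, and these correlations are descriptions.

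**Figure D5:**
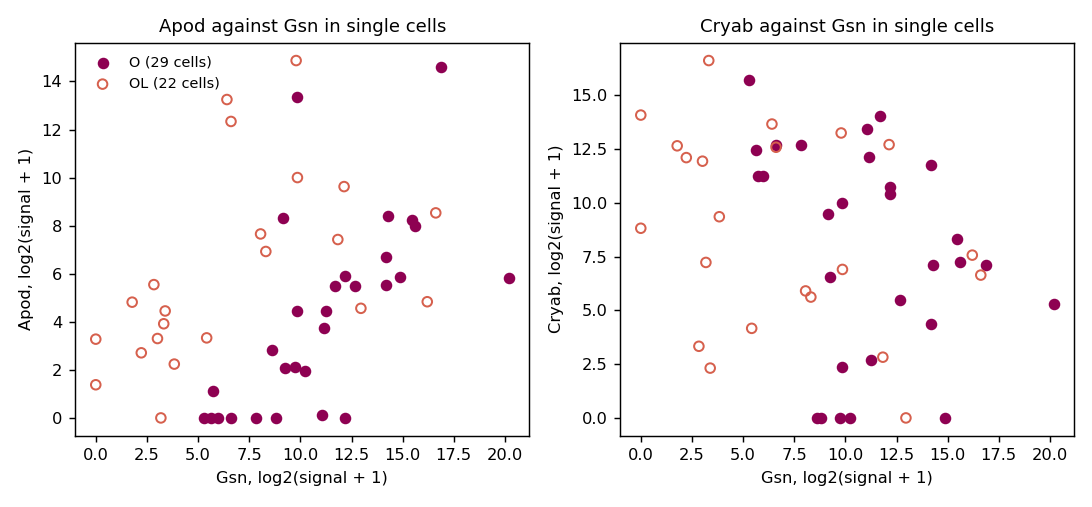
Apod (left) and Cryab (right) against Gsn in single OL and O cells, each axis as log2(normalized signal + 1). Apod tends to rise with Gsn, with r of 0.64 in O and 0.49 in OL, whereas a group of OL cells has high Cryab at Gsn near 0. Exceptions include OL cells CRBT176 and CRBT177, with Apod at 12.34 and 13.25 but Gsn at 6.61 and 6.41.

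The genes most like each member over all 155 cells, by Pearson's r among 3195 genes detected in at least 20 cells, were largely genes high in O and OL, since these stand apart from the other populations. Among the 5 genes most like Trf were Cnp, a myelin-associated phosphodiesterase (0.91), Ptgds (0.87), Sept4 (0.85) and Gsn (0.82). Among those most like Ptgds were Cnp (0.90), Trf (0.87), the tight junction gene Cldn11 (0.85) and Cryab (0.80). Gsn was most like Cnp and the septin Sept4 (both 0.87), Trf (0.82), the proteasome subunit Psmd6 (0.81) and Enpp2 (0.81), which encodes the secreted enzyme autotaxin.

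Apod and Cryab had different companions. Apod was most like Sept4 (0.87), Rabac1, a membrane traffic gene (0.80), Trf (0.76), Adamts4, a secreted protease of the extracellular matrix (0.73), and Gsn (0.72). Within O alone, r was 0.83 for Sept4, 0.77 for Rabac1 and 0.76 for Adamts4, and within OL 0.71, 0.70 and 0.57. Among the genes most like Cryab were Phgdh, the first enzyme of serine synthesis (0.88), the glycine transporter gene Slc6a9 (0.81), Ptgds (0.80) and Trf (0.79). Within O and OL r was 0.60 and 0.71 for Phgdh and 0.62 and 0.50 for Slc6a9.

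The companions of Apod and Cryab were picked by r over these same cells, and the sets were built from all genes. Their levels by set are therefore a description only. These companions followed the sets in part. Sept4 was at 12.20 in OL CRBT172 to CRBT179 and 11.39 in O CRBT203 to CRBT215, where Apod was high, and at 4.17 in OL CRBT183 to CRBT190 and 3.55 in the O set of cells CRBT21 to CRBT222, where it was low. Adamts4 was at 5.26 and 6.77 in the former sets and at 0 and 1.00 in the latter. Slc6a9 was at 12.90 in OL CRBT183 to CRBT190 and 11.40 in the O set of cells CRBT21 to CRBT222, where Cryab was highest, against 3.79 in OL CRBT192 to CRBT194 and 3.56 in O CRBT195 to CRBT208. Phgdh was at 11.70 and 11.08 in the former and at 4.58 and 2.18 in the latter. Other sets did not share this: in OL CRBT180 to CRBT182, with Cryab at 3.27, Phgdh was at 8.19 and Slc6a9 at 7.19. O cell CRBT19 had Phgdh at 11.80 without Cryab, and O CRBT203 to CRBT215 had Slc6a9 at 3.61 with Cryab at 8.11.

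Gjc3 had no close companion. Its highest r was 0.43 with Ktn1, followed by Olfr986 (0.42), Bcap31 (0.41), Olfr646 (0.40) and Ap1s3 (0.36). Within OL r was 0.90 for Ktn1 and 0.92 for Olfr986, where CRBT179 alone carries a high Gjc3 signal.

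Genes of related processes, from lists chosen for these functions, were measured in part. Over all genes 19.4% were higher and 20.7% lower by at least 1 in O than in NB, with a median difference of 0.09. In OL against O, 15.9% of all genes were higher and 15.7% lower by at least 1, with a median difference of -0.10. Of 16 iron-handling genes 5 were measured, and 2 were higher in O than in NB by at least 1 (median of the 5 differences 0.57) and 3 higher and 1 lower in OL than in O (median 2.57). Fth1, the ferritin heavy chain that stores iron, was at 7.63 ± 4.32 in OL, 5.07 ± 3.28 in O, 6.23 ± 4.82 in NBL, 1.23 ± 3.46 in NB and 0.20 ± 0.55 in OligNBL. Its light chain partner Ftl1 was at 7.11 ± 3.76 in OL, 4.50 ± 4.28 in O and 7.89 ± 3.47 in OligNBL. Unlike Trf, ferritin was thus also found in neuroblast populations. Fbxl5, which encodes an iron-sensing ubiquitin ligase subunit, was at 5.68 ± 4.43 in OL and 0.05 ± 0.20 in O. Pcbp1, an iron chaperone, was at 2.86 ± 4.10 in OL and 4.88 ± 3.85 in O.

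Of the 15 small heat shock genes and partners 5 were measured, and 3 were lower in O than in NB (median -2.27) and 2 higher in OL than in O (median 1.00). The latter were Hspa8, a constitutive HSP70 chaperone, at 9.20 ± 4.84 in OL and 2.66 ± 3.21 in O, and Hsp90ab1 at 6.58 ± 4.16 in OL and 1.60 ± 2.41 in O. Cryab itself differed by 0.90 between these populations. Of 13 lipocalins and lipid carriers 8 were measured, with 2 higher and 1 lower in O than in NB (median 0.37), and 1 higher and 2 lower in OL than in O (median 0.11). Bsg was at 5.15 ± 6.11 in O, 1.09 ± 2.64 in OL and 0.09 ± 0.56 in NB, and the fatty acid carrier gene Fabp5 was at 3.19 ± 3.92 in OL and 0.87 ± 1.38 in O. Of 16 prostaglandin genes only Ptges3 was measured, at 2.56 ± 3.86 in O and 1.06 ± 2.36 in OL.

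Of 18 actin severing and capping genes 10 were measured, with 2 higher and 5 lower in O than in NB (median -0.75), and 2 higher and 2 lower in OL than in O (median -0.06). Tmsb4x, which encodes an actin-sequestering peptide, was at 3.77 ± 3.84 in OL and 0.71 ± 1.45 in O, and cofilin 2 (Cfl2) at 1.76 ± 3.65 and 3.94 ± 4.71. Of 13 metabolic support genes 6 were measured, and 3 were higher in O than in NB (median 2.60) and 4 higher in OL than in O (median 1.66). Slc6a9 was at 10.42 ± 5.04 in OL and 5.89 ± 5.24 in O, and the glutathione transferase gene Gstp1 at 7.78 ± 4.94 and 4.48 ± 4.18. Of 15 other secreted proteins of glia 4 were measured, with 3 higher and 1 lower in O than in NB (median 5.72) and 1 higher and 2 lower in OL than in O (median -1.69). Enpp2 was at 9.60 ± 5.98 in O and 5.95 ± 4.13 in OL, and Sparcl1, a secreted matrix protein, at 7.26 ± 6.15 and 2.09 ± 1.61, the same direction as Gsn. Selenop, a selenium carrier, was at 6.08 ± 5.20 in OL and 4.27 ± 4.95 in O. Among the list genes named with values in OL and O, the difference was larger than the larger SD for Fbxl5, Hspa8 and Hsp90ab1 and smaller for the rest.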

How the data were processed

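The 155 deposited columns, 1 per cell, were mapped to the samples by title and grouped by the labels' population name. The submitters' processing notes name kallisto, limma and GRCm38. Versions, input reads and how the 3422 genes were selected were not given in the sources used here. Deposited values carry the name of estimated counts, but their near-equal totals and shared highest values are those of a signal normalized across cells. Lower values also recurred at the same ranks in different cells, a pattern of values set by rank. The labels do not describe the step, so no count model, depth or scaling by reads was used. One NB cell had 0.00585 as its lowest value, so a gene counted as detected above its column's lowest value. Columns of different cells were never identical (0 found).

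From this signal the level (mean of log2(signal + 1)) and SD over cells, differences of levels counted at 1, and each cell's 500 highest genes were computed. Cells were joined into sets by average linkage at a mean correlation of 0.4. Genes were named by rule: the 6 members, the 5 genes with the highest Pearson r to each, and up to 4 genes per fixed list by largest difference between O and NB or OL and O. One gene that this rule names is not reported here. Members, lists and rules were chosen with earlier results of these data known. Sequences came from RefSeq and gene positions from GENCODE. Python 3.11.15, numpy 2.4.6, pandas 2.3.3 and scipy 1.17.1 were used, and the level computation was tested on simulated data. Alternatives covered the added value, weights, cell subsets, scaling and filters.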

Additional observations from a re-analysis of the deposited data

How the results depend on the processing

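No paired analysis was possible because no result comes from a test and no label ties a cell to a mouse. Of the counts of members past a difference of 1 and the medians of members per cell, 11 values under other settings moved. A count moved when it changed by over 1.5 times or from 0. A median moved when it changed by at least the SD between cells. For OL against O, 3 members passed, against 1 with 100 added before the log, 6 in the earlier-numbered cells of each population and 1 when a difference of 2 was asked for. For OligNBL against NBL, 0 became 1 with the log2 of the mean signal and 1 with Trf summed with Gm20425, an alternative added after seeing the data. For NBL against NB, 0 became 1 with sets weighted equally (joined at 0.4 or 0.35) and 2 with the log2 of the mean. The median number of members per cell became 1 in OligNBL when any value above 0 counted, and 5 in O with that rule or with the 1000 highest genes. Signs turned for Ptgds in OL against O, at 0.31 among cells with at least 1000 genes detected, 0.98 in the later-numbered cells and 0.39 with the log2 of the mean. They also turned for Apod in OL against O, at -0.28 in the later-numbered cells, and for the correlation of Apod and Gsn in OL, at -0.31 after subtracting set means. Differences of OL against O under 1 turned too: Trf (-0.47) to 1.04 in the earlier-numbered cells, 0.83 with sets joined at 0.5 and 0.97 with the log2 of the mean, Cryab (0.90) to -0.58 without mixed sets, -0.47 with sets joined at 0.5, -0.25 in the later-numbered cells and -0.12 with the median over cells, and Gjc3 (0.77) to -0.30 in the later-numbered cells. Why these values changed was not tested. With genes under a scaled mean of 5 in both populations left out, the share of all genes past a difference of 1 in either direction was 67.2% for O against NB where it was 40.1%, 63.2% for OL against O where it was 31.6%, 72.9% for OL against NBL where it was 46.8%, and 58.02% for NBL against NB where it was 34.7%. Leaving out cells numbered up to 21, also added after seeing the data, moved no count of members by over 1.5 times. The unknown depth per cell and the lack of a mouse label limit every value: a signal of 0 does not show absence, and the SDs describe cells, not animals.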
